A study of Homo sapiens with 4 samples.

Results

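The interferon-stimulated genes are a set of 41 genes that cells switch on in response to interferon. They were chosen by name from general knowledge of the interferon response and were taken by gene symbol, with no measured value in the rule. The choice was made with earlier results of these data known. All 41 symbols were found among the 26255 gene symbols of the 4 RNA-seq libraries, and their level was described by cell line and by transfected oligonucleotide. MIA PaCa-2 and PSN-1 are established human cell lines from pancreatic tumours, labelled as epithelial. Each line was transfected either with a mimic of the microRNA miR-4800-3p, a synthetic RNA that stands in for the mature microRNA, or with a scramble negative control oligonucleotide. The 2 lines and 2 oligonucleotides give 4 groups, and each group has 1 library. No other treatment, dose or time is given in the labels. The study's stated purpose was to find target mRNAs of miR-4800-3p. Cells of both groups in each line received a transfected oligonucleotide, and cells without transfection were not analysed here.

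Interferons are secreted proteins that mark a viral infection. Cells make them after helicases such as RIG-I and MDA5, or other sensors, detect foreign nucleic acid. Type I interferon binds its receptor and activates the kinases JAK1 and TYK2, which phosphorylate STAT proteins. These join IRF9 and bind a DNA motif, the interferon-stimulated response element (ISRE), in the promoters of the genes described here. Many pancreatic tumour cells carry some of this programme without added interferon, and the amount varies between cell lines.

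The sequence of the microRNA is shown because the mimic is what the paired libraries differ in, and its seed, bases 2 to 8, is in capitals. RefSeq places the mature form on the minus strand of GRCh38.p14 at chr4:2250091-2250109.
hsa-miR-4800-3p: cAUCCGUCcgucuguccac

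Promoter windows were available from RefSeq for 33 of the 41 genes, with DDX58 matched under its symbol RIGI. Each window runs from 250 bases before to 50 bases after a gene's start on GRCh38.p14. No window was read for DHX58, OAS2, OASL, IRF7, USP18, IFIT2, IFITM2 or MX2. The core of the ISRE was searched as GAAA, any 2 bases and GAAA, on both strands, and 22 of the 33 genes (66.7%) had a match in at least 1 window. The same letters stood in 1195 of all 27305 genes with a window (4.38%). A second motif of the pathway, the gamma-activated site, was searched as TTCNNNGAA, which reads the same on both strands and may overlap an ISRE core. It was found in 10 of the 33 genes (30.3%) against 9.38% of all genes. Only a spacing of 2 bases was searched for the ISRE core. OAS1, DDX58, XAF1, CMPK2 and IFI35, counted as without a match, each have a window with GAAA, 1 base and GAAA on a strand. A match describes letters in the window and is not a measured binding site.

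The windows below belong to 4 genes with a match and 1 without, and ISRE cores are in capitals. They are examples from the genes described below, and other genes with a window, such as IRF1 and OAS1, differ more between the lines than MX1. BST2 (chr19:17405581-17405880, minus strand) has 2 overlapping cores that begin 130 and 124 bases before the start. In IFIT3 (chr10:89327747-89328046, plus strand) the cores are on the opposite strand and read as TTTC, 2 bases and TTTC. ISG20 (chr15:88638766-88639065, plus strand) has its core 69 bases before the start, and in MX1 (chr21:41420308-41420607, plus strand) the core lies 11 bases after the start. UBE2L6 (chr11:57567886-57568185, minus strand) has no core in this window.
BST2: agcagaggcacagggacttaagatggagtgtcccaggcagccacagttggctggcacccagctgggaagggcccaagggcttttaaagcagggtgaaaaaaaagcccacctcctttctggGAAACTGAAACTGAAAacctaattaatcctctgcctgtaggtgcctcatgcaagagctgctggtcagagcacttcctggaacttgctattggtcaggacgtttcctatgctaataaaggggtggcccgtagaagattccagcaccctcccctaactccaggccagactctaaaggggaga
IFIT3: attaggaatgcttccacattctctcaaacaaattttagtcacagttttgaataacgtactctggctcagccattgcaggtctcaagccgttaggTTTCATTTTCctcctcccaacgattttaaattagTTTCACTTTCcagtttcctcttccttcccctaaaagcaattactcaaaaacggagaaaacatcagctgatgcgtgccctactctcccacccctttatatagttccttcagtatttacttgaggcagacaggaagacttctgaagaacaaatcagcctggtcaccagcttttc
ISG20: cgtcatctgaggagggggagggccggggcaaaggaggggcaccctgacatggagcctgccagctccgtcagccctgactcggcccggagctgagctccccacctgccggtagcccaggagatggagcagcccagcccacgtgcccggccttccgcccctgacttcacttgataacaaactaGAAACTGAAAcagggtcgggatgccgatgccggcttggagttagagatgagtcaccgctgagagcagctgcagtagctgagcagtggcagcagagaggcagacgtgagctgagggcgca
MX1: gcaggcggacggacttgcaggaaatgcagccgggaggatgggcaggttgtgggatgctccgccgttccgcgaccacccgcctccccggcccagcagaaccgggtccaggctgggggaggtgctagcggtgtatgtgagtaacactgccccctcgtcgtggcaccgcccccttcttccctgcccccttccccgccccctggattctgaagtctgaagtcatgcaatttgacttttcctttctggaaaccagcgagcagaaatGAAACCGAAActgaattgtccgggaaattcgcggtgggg
UBE2L6: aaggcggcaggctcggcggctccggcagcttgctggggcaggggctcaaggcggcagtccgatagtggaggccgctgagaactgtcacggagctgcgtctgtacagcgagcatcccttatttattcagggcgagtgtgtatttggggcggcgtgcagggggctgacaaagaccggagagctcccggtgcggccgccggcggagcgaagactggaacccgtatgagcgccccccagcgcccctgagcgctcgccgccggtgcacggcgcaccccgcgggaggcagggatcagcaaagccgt

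The values are FPKM, fragments scaled to transcript length and library size, as the authors deposited them, so levels of different genes can be set side by side per length. From the steps between low values, 1 FPKM was worth an estimated 12.6 to 15.9 fragments per kilobase in the 4 libraries, and 15699 to 17294 genes were above 0. The epithelial keratins KRT8 and KRT18 stood between 495 and 923 FPKM in every library. The epithelial adhesion gene EPCAM was at 0.139 and 0.104 FPKM in MIA PaCa-2 and at 28.4 and 24.1 FPKM in PSN-1. CDH1 reached at most 0.335 FPKM in MIA PaCa-2 and stood at 0.720 and 1.51 FPKM in PSN-1. The epithelial ESRP1 reached at most 0.212 FPKM. Of 4 mesenchymal markers, VIM stood at 4401 and 4111 FPKM in MIA PaCa-2 and at 1235 and 1144 FPKM in PSN-1. ZEB1 stood at 19.8 to 30.5 FPKM in the 4 libraries. FN1 was at most 0.0696 FPKM in MIA PaCa-2 and at 353 and 308 FPKM in PSN-1, and CDH2 at most 0.0514 FPKM. Of 8 leukocyte markers, 4 were measured in PSN-1 and none in MIA PaCa-2. Their summed level was 1.26 to 1.39 FPKM in MIA PaCa-2 and 61.7 to 86.0 FPKM in PSN-1, where CD74 and HLA-DRA made up most of it. The pan-leukocyte gene PTPRC stood at 0.423 and 0.433 FPKM in PSN-1, and the T cell gene CD3E was listed at 0 in all 4 libraries. Of 4 markers of plasmacytoid dendritic cells, a main source of interferon, CLEC4C and IL3RA were listed at 0 everywhere and the summed level reached at most 0.23 FPKM. The part of these markers in the results was not tested.

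The interferon-stimulated genes were more widely expressed in PSN-1 than in MIA PaCa-2. In PSN-1, 35 of the 41 genes reached 1 FPKM in each library and 19 reached 10 FPKM. In MIA PaCa-2, 24 reached 1 FPKM and 10 (mimic) or 8 (scramble) reached 10 FPKM. The median level of the 41 genes was 9.11 FPKM (mimic) and 8.76 FPKM (scramble) in PSN-1, against 2.29 and 2.52 FPKM in MIA PaCa-2. With whole libraries of cells, fewer expressing cells and less RNA per cell cannot be told apart.

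A model across all genes (limma on log2 of FPKM + 1, with terms for line and oligonucleotide and Benjamini-Hochberg adjustment over 12423 genes) compared the lines using all 4 libraries. Of the 36 interferon-stimulated genes that averaged at least 1 FPKM over the 4 libraries, 21 were higher in PSN-1 and 5 were higher in MIA PaCa-2. Among them, 11 averaged under 1 FPKM in MIA PaCa-2 and passed this filter through PSN-1, and 1 (IFIT1) the other way. The 11 were DDX60, OAS1, OAS2, OAS3, IRF7, HERC5, HERC6, SAMD9, IFI27, IFI44 and XAF1, and all but HERC6 are among the 21 called. For these genes and IFIT1 the filter itself favoured the line in which they were higher. Their limma values below describe the difference and give no separate support for it. The same filter stands behind every limma count given below. Over all genes tested, 29.2% were called higher in PSN-1 and 27.3% higher in MIA PaCa-2. The median difference over the 36 genes was 1.06 on the log2 scale toward PSN-1, against 0.015 over all genes tested. Each line contributed 1 library per oligonucleotide, so 1 residual degree of freedom stood behind this fit besides the spread borrowed across genes. This residual is how far the lines disagree in their difference between mimic and scramble, so libraries with different oligonucleotides stood in for replicates of a line. A gene whose differences run opposite ways in the lines, such as UBE2L6, therefore gets a wider SE. The labels name no separate cultures, and the p-values hold no separate measure of spread between cultures. Technical and biological parts of the disagreement cannot be told apart.

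**Figure D1:**
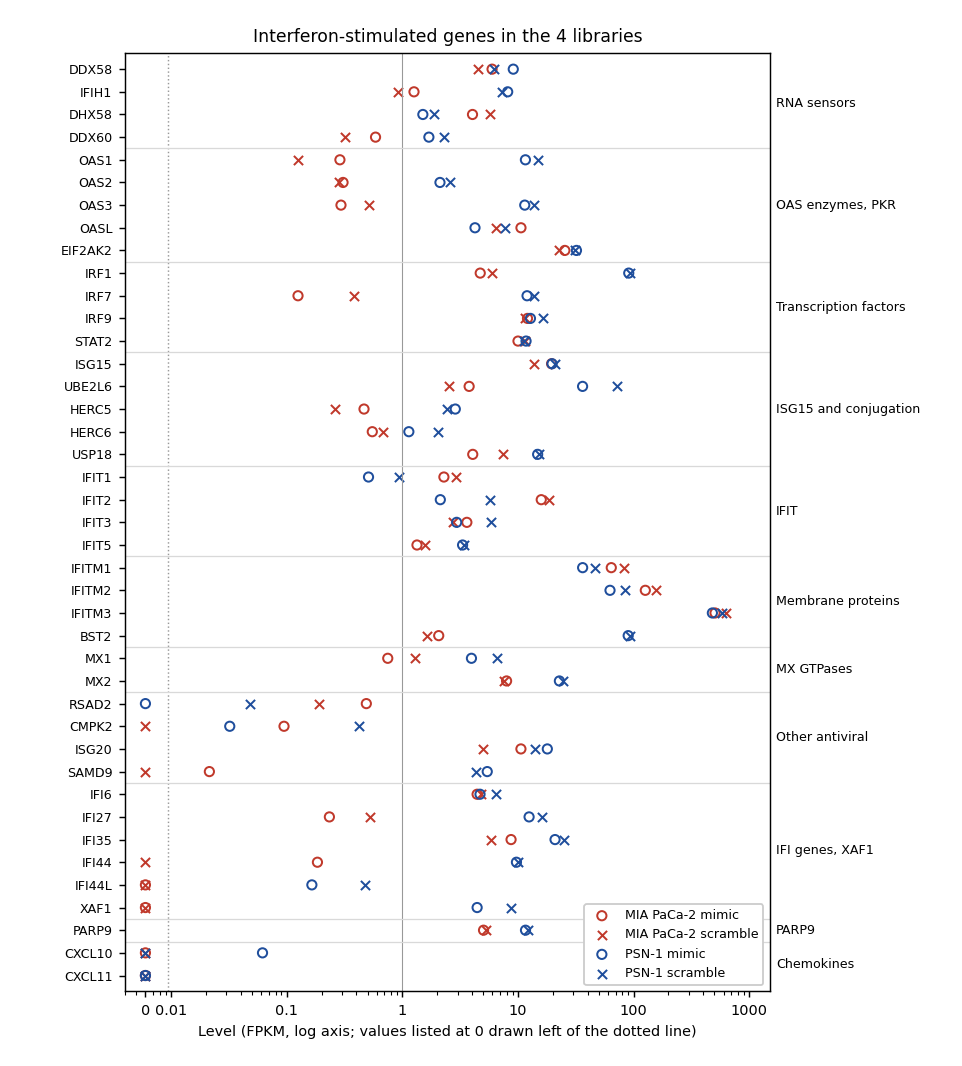
Level of each of the 41 interferon-stimulated genes in FPKM (log axis, values listed at 0 left of the dotted line) in the 4 libraries, circles for the mimic and crosses for the scramble, grouped by role. PSN-1 points lie to the right of MIA PaCa-2 points for most genes, with OAS1, IRF7 and BST2 among the wide gaps, and IFITM3 has the highest level in all 4 libraries.

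The interferon-induced membrane proteins held most of the summed level. IFITM3, which blocks entry of enveloped viruses from endosomes, stood at 506 (mimic) and 626 (scramble) FPKM in MIA PaCa-2 and at 479.9 and 580.3 FPKM in PSN-1. IFITM2, its close copy, stood at 126 and 156 FPKM in MIA PaCa-2 and at 62.5 and 83.9 FPKM in PSN-1. IFITM1, the member found mainly at the cell surface, stood at 64.1 and 82.6 FPKM in MIA PaCa-2 and at 36.2 and 46.0 FPKM in PSN-1. Both IFITM2 and IFITM1 were lower in PSN-1 than in MIA PaCa-2 in every pairing of libraries (limma, log2 difference -0.95 ± 0.10 SE, adjusted p = 0.00147, and -0.82 ± 0.11 SE, adjusted p = 0.00297). IFITM3 did not pass the threshold (limma, -0.09, adjusted p = 0.295). Together the 3 genes made 80.6 to 84.9% of the summed FPKM of the 41 genes in MIA PaCa-2 and 53.8 to 55.4% in PSN-1. The coding sequences of IFITM2 and IFITM3 are 93.3% identical, and their transcripts share a run of 99 bases. The transcripts of IFITM1 share a run of 141 bases with IFITM3 and of 99 bases with IFITM2. How fragments that match more than 1 of these genes were assigned is not given in the sources used here. The split among the 3 genes is therefore uncertain.

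BST2, or tetherin, which holds budding viruses at the cell surface, gave the widest gap between the lines on the log2(FPKM + 1) scale. OAS1 (64.3-fold) and IRF7 (50.6-fold) had wider ratios of mean FPKM. No ratio was taken for genes listed at 0 in a MIA PaCa-2 library, such as SAMD9, IFI44 and XAF1, so these are not the widest of all. BST2 stood at 2.06 FPKM (mimic) and 1.64 FPKM (scramble) in MIA PaCa-2 and at 89.8 and 92.8 FPKM in PSN-1. That is a 49.4-fold higher mean level in PSN-1 (limma, log2 difference 5.02 ± 0.15 SE, adjusted p = 8.32e-05). Its promoter window above carries 2 overlapping ISRE cores.

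Among transcription factors, IRF1 and IRF7 separated the lines and IRF9 and STAT2 did not pass the threshold. IRF1, which drives antiviral and antigen presentation genes, stood at 4.72 and 5.96 FPKM in MIA PaCa-2 and at 90.8 and 93.0 FPKM in PSN-1. Its mean was 17.2-fold higher in PSN-1 (limma, 3.88 ± 0.14 SE, adjusted p = 0.000101). IRF7, which amplifies type I interferon production, stood at 0.125 and 0.383 FPKM in MIA PaCa-2 and at 11.98 and 13.7 FPKM in PSN-1 (limma, 3.47, adjusted p = 0.000181). By contrast IRF9 and STAT2, the DNA-binding and transactivating partners of the ISRE complex, were expressed in all 4 libraries, between 11.6 and 16.6 FPKM for IRF9 and between 10.004 and 11.7 FPKM for STAT2 (limma, adjusted p = 0.202 and 0.619).

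The oligoadenylate synthetases, enzymes that activate RNase L when they bind double-stranded RNA, were, apart from OASL, under 1 FPKM in MIA PaCa-2. OAS1 stood at 0.289 and 0.124 FPKM in MIA PaCa-2 and at 11.6 and 14.9 FPKM in PSN-1 (limma, 3.56 ± 0.21 SE, adjusted p = 0.000267). OAS3 stood at 0.295 and 0.513 FPKM in MIA PaCa-2 and at 11.4 and 13.7 FPKM in PSN-1 (limma, 3.27, adjusted p = 0.000199). OAS2 also was higher in PSN-1 (limma, 1.37, adjusted p = 0.00415), at 2.12 and 2.59 FPKM there. OASL, a family member without synthetase activity that aids RIG-I signalling, overlapped between the lines at 4.25 to 10.6 FPKM. EIF2AK2, which encodes the kinase PKR, was expressed in all 4 libraries at 22.7 to 32.1 FPKM (limma line difference 0.38, adjusted p = 0.0516).

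The ISG15 system, in which a ubiquitin-like protein is attached to other proteins, had 3 of its 4 listed enzymes called higher in PSN-1, while ISG15 itself did not pass the threshold. ISG15 stood at 19.5 and 13.7 FPKM in MIA PaCa-2 and at 19.7 and 20.9 FPKM in PSN-1 (limma, 0.29, adjusted p = 0.22). The conjugating enzyme UBE2L6 stood at 3.78 and 2.52 FPKM in MIA PaCa-2 and at 36.2 and 71.9 FPKM in PSN-1, a 17.1-fold higher mean (limma, 3.67 ± 0.34 SE, adjusted p = 0.000976). The ligase HERC5 (limma, 1.42, adjusted p = 0.00321) and the deconjugating enzyme USP18 (limma, 1.30, adjusted p = 0.00515) were also higher in PSN-1. The activating enzyme UBA7, which is not one of the 41 genes, stood at 0.158 and 0.303 FPKM in MIA PaCa-2 and at 6.34 and 11.5 FPKM in PSN-1.

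Further genes were low in MIA PaCa-2 and higher in PSN-1, and of those given here all but IFIH1 passed the filter through PSN-1 alone. IFI27, a mitochondrial protein gene, stood at 0.234 and 0.524 FPKM in MIA PaCa-2 and at 12.5 and 16.2 FPKM in PSN-1 (limma, 3.47 ± 0.17 SE, adjusted p = 0.000167). IFI44 stood at 0.184 FPKM and was listed at 0 in MIA PaCa-2, against 9.70 and 9.95 FPKM in PSN-1 (limma, 3.31, adjusted p = 0.00025). XAF1, which antagonises the apoptosis inhibitor XIAP, was listed at 0 in both MIA PaCa-2 libraries and stood at 4.43 and 8.76 FPKM in PSN-1 (limma, 2.86, adjusted p = 0.000952). SAMD9, an antiviral translation inhibitor, stood at 0.0214 FPKM and was listed at 0 in MIA PaCa-2, against 5.42 and 4.31 FPKM in PSN-1. The helicase gene IFIH1, which encodes MDA5, stood at 1.26 and 0.925 FPKM in MIA PaCa-2 and at 8.15 and 7.30 FPKM in PSN-1 (limma, 2.06, adjusted p = 0.000707). In each of these genes the libraries of the lines did not overlap, as in 26 of the 36 tested genes with PSN-1 above and 5 with MIA PaCa-2 above. Over all genes tested these shares were 39.99% and 38.99%, so a lack of overlap alone sets no gene apart.

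A smaller group ran the other way. IFIT2, an inhibitor of translation that binds viral RNA, stood at 15.9 and 18.6 FPKM in MIA PaCa-2 and at 2.13 and 5.73 FPKM in PSN-1, a 4.38-fold higher mean in MIA PaCa-2 (limma, PSN-1 minus MIA PaCa-2 -1.98 ± 0.25 SE, adjusted p = 0.00233). IFIT1, which binds capped RNA that lacks ribose methylation, stood at 2.29 and 2.92 FPKM in MIA PaCa-2 and at 0.51 and 0.927 FPKM in PSN-1 (limma, -1.07 ± 0.19 SE, adjusted p = 0.00744). DHX58, which encodes the RIG-I-like helicase LGP2, stood at 4.04 and 5.73 FPKM in MIA PaCa-2 and at 1.504 and 1.86 FPKM in PSN-1 (limma, -1.12 ± 0.18 SE, adjusted p = 0.00517). With IFITM1 and IFITM2 these are the 5 genes called higher in MIA PaCa-2, so the IFIT family itself was divided, since IFIT5 was called higher in PSN-1 (limma, 0.83, adjusted p = 0.0141).

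At the low end were 8 genes listed at 0 in at least 1 library. The chemokine gene CXCL11 was listed at 0 in all 4 libraries, and CXCL10 stood at 0.0618 FPKM in the PSN-1 mimic library, an estimated 0.962 fragments, and at 0 elsewhere. RSAD2, the gene of the antiviral enzyme viperin, stood at 0.488 and 0.19 FPKM in MIA PaCa-2 and at 0 and 0.0477 FPKM in PSN-1. CMPK2, a mitochondrial nucleotide kinase gene next to RSAD2, reached 0.424 FPKM in the PSN-1 scramble library. IFI44L was listed at 0 in MIA PaCa-2 and reached 0.472 FPKM in PSN-1. These 5 genes averaged under 1 FPKM in both lines and were given no change. The other three are IFI44, SAMD9 and XAF1, described above.

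The mimic was then compared with the scramble within each line. The change is log2 of (mimic FPKM + 1) over (scramble FPKM + 1), taken for genes that averaged at least 1 FPKM in the line's libraries, which understates the change of low genes. With 1 library per group no test is possible within a line, and the SE given with a change covers counting error only. Between these libraries, the genes leaned lower with the mimic in PSN-1 and were evenly divided in MIA PaCa-2.

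In PSN-1, 28 of the 35 measured interferon-stimulated genes were lower with the mimic and 7 were higher, where 52.4% of all 12233 measured genes were lower and 47.6% higher. Their median change was -0.20 against -0.016 over all genes. Past 1.5-fold, 6 genes were lower, against 3.87% of all genes. They were IFIT2, UBE2L6, XAF1, IFIT3, OASL and MX1. None was higher past 1.5-fold, against 3.17% of all genes. Past 2-fold on this scale, IFIT2 alone was lower, against 0.777% of all genes, and none was higher, against 0.85%. In PSN-1 the change ran with the GC content of transcripts (Spearman rho = -0.222 across genes, which are not independent replicates), against -0.0339 in MIA PaCa-2. With that trend removed, 26 of the 35 were lower and 5 of them past 1.5-fold, with a median of -0.17. The part of GC content in the remaining changes was not tested. The summed level of the leukocyte markers was also lower with the mimic in PSN-1, at 61.7 against 86.0 FPKM, and 4 of the 4 measured markers were lower. In the fibroblast and stellate cell markers, 4 of 4 measured were lower, with sums of 80.6 and 99.1 FPKM. Of the epithelial markers, 5 of 7 measured were lower and 2 higher. The mesenchymal markers went the other way, with 3 of 3 measured higher, and the endothelial markers had 1 higher and 1 lower. Most of the leukocyte sum was CD74, at 47.1 FPKM with the mimic and 66.3 FPKM with the scramble, while PTPRC stood at 0.423 and 0.433 FPKM. The part of these markers in the result was not tested.

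In MIA PaCa-2, 12 of the 25 measured genes were higher with the mimic and 13 were lower, against 52.2% and 47.8% of all 11484 measured genes. Their median change was -0.05 against 0.014 over all genes. Past 1.5-fold, ISG20 and OASL were higher (2 genes, against 5.43% of all genes) and USP18 was lower (1 gene, against 4.06%). None passed 2-fold there on this scale, against 1.31% of all genes higher and 0.81% lower. The plain FPKM ratio of ISG20 was 2.11. Of the 41 genes, 11 passed the filter in PSN-1 alone, 1 (IFIT1) in MIA PaCa-2 alone and 5 in neither, so these counts do not cover all 41.

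**Figure D2:**
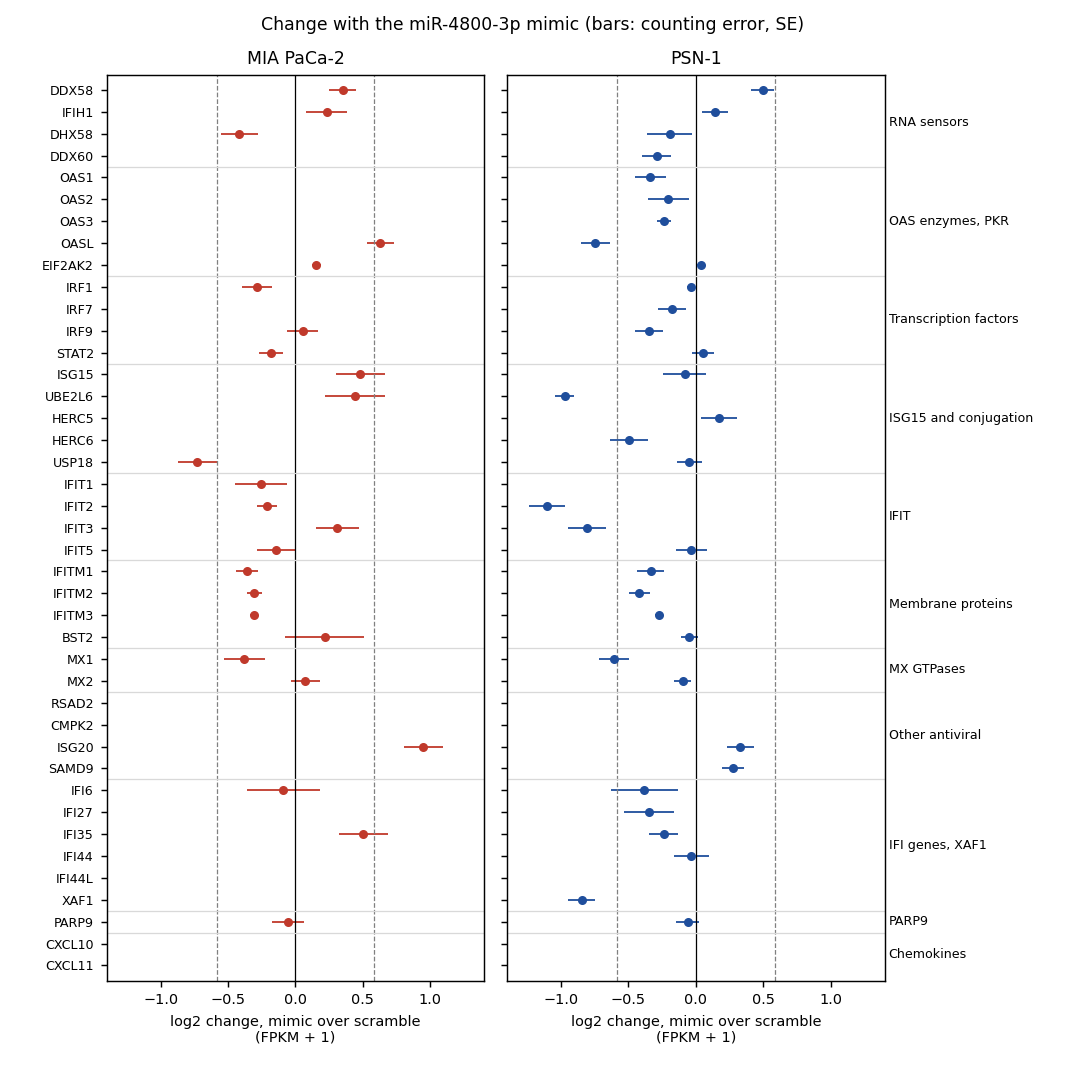
Log2 change with the mimic over the scramble for each measured interferon-stimulated gene, MIA PaCa-2 left and PSN-1 right, with bars of 1 SE of counting error and dashed lines at 1.5-fold. Most PSN-1 points lie left of 0, with IFIT2, UBE2L6 and XAF1 farthest, while MIA PaCa-2 points lie on both sides, with ISG20 and USP18 at the ends.

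Among the cytosolic RNA sensors, RIG-I was higher with the mimic in both lines. DDX58, which encodes it, stood at 5.97 FPKM with the mimic and 4.47 FPKM with the scramble in MIA PaCa-2 (change 0.35 ± 0.10 SE of counting) and at 9.11 and 6.18 FPKM in PSN-1 (0.49 ± 0.09). IFIH1 was also higher in both, by 0.23 and 0.14. DHX58, whose product modulates the other sensors, was lower in both, by -0.42 in MIA PaCa-2 against -0.19 in PSN-1. DDX60, a helicase linked to RIG-I signalling, was measured in PSN-1 alone, at 1.70 against 2.30 FPKM.

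OASL was the member whose direction was most evenly opposed. It stood at 10.6 FPKM with the mimic and 6.51 FPKM with the scramble in MIA PaCa-2 (0.63 ± 0.10), and at 4.25 and 7.79 FPKM in PSN-1 (-0.74 ± 0.11). In both lines the gap exceeded counting error. The synthetases OAS1, OAS2 and OAS3 were each lower with the mimic in PSN-1, by -0.34, -0.20 and -0.24. EIF2AK2 was at 0.16 in MIA PaCa-2 against 0.04 in PSN-1.

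None of the transcription factors was past 1.5-fold in either line. The largest value among them was that of IRF9, at 12.8 FPKM with the mimic and 16.6 FPKM with the scramble in PSN-1 (-0.35), where MIA PaCa-2 stood at 12.1 and 11.6 FPKM (0.05). IRF1 was at -0.28 in MIA PaCa-2 against -0.03 in PSN-1, and IRF7 was at -0.18 in PSN-1. STAT2 was at -0.18 in MIA PaCa-2 against 0.05 in PSN-1, the 1 gene of the 24 measured in both lines that was lower in MIA PaCa-2 and higher in PSN-1.

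In the ISG15 system the conjugating enzyme had the largest difference. UBE2L6 stood at 36.2 FPKM with the mimic and 71.9 FPKM with the scramble in PSN-1 (-0.97 ± 0.07), and at 3.78 and 2.52 FPKM in MIA PaCa-2 (0.44 ± 0.22). ISG15 was at 0.48 ± 0.18 in MIA PaCa-2 against -0.08 in PSN-1. USP18, which removes ISG15 and also dampens the interferon receptor, stood at 4.06 FPKM with the mimic and 7.38 FPKM with the scramble in MIA PaCa-2 (-0.73 ± 0.15) and at 14.8 and 15.3 FPKM in PSN-1 (-0.05). The ligases were measured in PSN-1 alone, HERC5 at 2.87 and 2.43 FPKM (0.17) and HERC6 at 1.14 and 2.01 FPKM (-0.50). The activating enzyme UBA7 was lower in PSN-1 as well (-0.76).

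The IFIT family was lower with the mimic in PSN-1 in all 3 measured members. IFIT2 stood at 2.13 FPKM with the mimic and 5.73 FPKM with the scramble (-1.11 ± 0.13), the 1 interferon-stimulated gene past 2-fold in either line on the log2(FPKM + 1) scale. IFIT3, which stabilises IFIT1 on RNA, stood at 2.95 and 5.90 FPKM (-0.81 ± 0.14). IFIT5 was at -0.03. In MIA PaCa-2 IFIT2 stood at 15.9 and 18.6 FPKM (-0.21) and IFIT3 at 3.61 and 2.72 FPKM (0.31 ± 0.16). IFIT1, measured in MIA PaCa-2 alone, was at -0.25 and IFIT5 at -0.14. The coding sequences of the family are 57.5 to 67.4% identical, and the transcripts share runs of at most 26 bases.

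Mimic libraries of both lines had less of all 3 IFITM transcripts. IFITM3 was at -0.31 in MIA PaCa-2 against -0.27 in PSN-1, IFITM1 at -0.36 and -0.34, and IFITM2 at -0.30 and -0.42. Because of their near-identical stretches, these are not 3 independent observations. BST2 was at 0.22 ± 0.29 in MIA PaCa-2 against -0.05 in PSN-1, within counting error in both.

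Of the MX GTPases, which trap viral nucleocapsids, MX1 had the larger values. It stood at 0.748 FPKM with the mimic and 1.27 FPKM with the scramble in MIA PaCa-2 (-0.38) and at 3.96 and 6.56 FPKM in PSN-1 (-0.61 ± 0.11). The PSN-1 value lies just past 1.5-fold and was -0.58, no longer past it, with the GC trend removed. MX2, which restricts HIV, stood at 7.97 and 7.52 FPKM in MIA PaCa-2 (0.07) and at 22.8 and 24.5 FPKM in PSN-1 (-0.10).

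ISG20 had the highest change of the 41 genes. This gene of an RNA exonuclease stood at 10.6 FPKM with the mimic and 5.02 FPKM with the scramble in MIA PaCa-2 (0.95 ± 0.14), and at 17.9 and 14.1 FPKM in PSN-1 (0.33). It was higher with the mimic in both lines. SAMD9, measured in PSN-1 alone, was at 0.27.

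XAF1 stood at 4.43 FPKM with the mimic and 8.76 FPKM with the scramble in PSN-1 (-0.85 ± 0.10). The other IFI genes measured there were all lower, with IFI6 at -0.38, IFI27 at -0.35, IFI35 at -0.24 and IFI44 at -0.03. IFI35, which interacts with NMI, was higher in MIA PaCa-2, at 8.71 against 5.85 FPKM (0.50). IFI6, a mitochondrial antiapoptotic gene, was at -0.09 there. PARP9, whose product works with DTX3L at DNA damage and interferon-responsive genes, was at -0.05 in MIA PaCa-2 against -0.06 in PSN-1.

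Setting the lines side by side, 24 of the 41 genes were measured in both. Of these, 11 had a lower value with the mimic in each line, against 27.6% of the 10678 genes measured in both. Another 4 (DDX58, IFIH1, EIF2AK2 and ISG20) were higher in both, against 28.1% of genes. There were 8 genes higher in MIA PaCa-2 and lower in PSN-1, against 24.3%, and 1, STAT2, the other way, against 20%. In all, 9 of the 24 had opposite signs, against 44.2% of genes. The 8 genes were OASL, IRF9, ISG15, UBE2L6, IFIT3, BST2, MX2 and IFI35. Counting only changes past 1.2-fold in both lines, IFITM1, IFITM2, IFITM3 and MX1 were lower in both (4 of 24, against 5.03% of genes), and DDX58 and ISG20 were higher in both (2 of 24, against 4.73%). At the same threshold OASL, UBE2L6 and IFIT3 were higher in MIA PaCa-2 and lower in PSN-1, which is 3 of 24, against 2.55% of the 10678 genes. No interferon-stimulated gene was past 1.2-fold the other way, against 1.67%. The difference between the lines was -1.41 for UBE2L6, -1.37 for OASL and -1.12 for IFIT3, as PSN-1 change minus MIA PaCa-2 change on the log2 scale. It was not tested, since 1 library per group leaves no residual degree of freedom for an interaction.

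**Figure D3:**
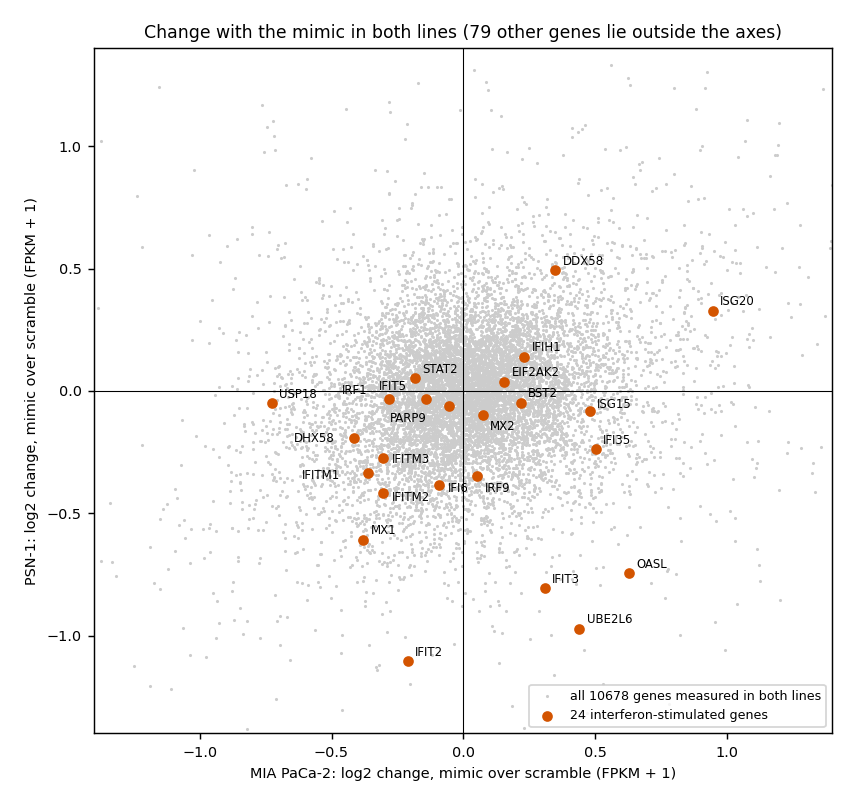
Log2 change with the mimic over the scramble in MIA PaCa-2 (horizontal) and PSN-1 (vertical) for all 10678 genes measured in both lines (grey) and the 24 interferon-stimulated genes among them (orange). OASL, UBE2L6 and IFIT3 lie in the lower right quadrant, ISG20 and DDX58 in the upper right, and IFIT2 and MX1 in the lower left.

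The effect of the mimic shared by both lines was tested across all 4 libraries with limma and Benjamini-Hochberg adjustment over 12423 genes. None of the 36 tested interferon-stimulated genes passed an adjusted p of 0.05, where 0.0483% of all genes were called higher and 0.00805% lower. Without adjustment, p was under 0.05 for 2 higher genes (DDX58 and ISG20) and for 5 lower ones (IFITM1, IFITM2, IFITM3, IFIT2 and MX1), against 4.19% and 4.24% of all genes. The smallest limma p was that of IFITM3, with a shared change of -0.29 ± 0.07 SE (limma, adjusted p = 0.422), lower in both lines. The fit assumes that the lines respond alike, and for OASL, UBE2L6 and IFIT3 it averages opposite values.

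Other genes of the pathway were given by lists chosen from general knowledge, with earlier results of these data known. Among 21 interferon genes, which encode the ligands, 19 were listed at 0 in both MIA PaCa-2 libraries and 20 in both PSN-1 libraries. The highest was IFNL1, a type III interferon, at 0.322 FPKM in the MIA PaCa-2 mimic library and 0 in the other 3. IFNL3 stood at 0.179 FPKM in the same library and IFNA5 at 0.126 FPKM in the PSN-1 mimic library. No ligand gene averaged 1 FPKM in either line.

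The receptors, kinases, STATs and their feedback inhibitors were present in both lines. Of 17 such genes, 15 were measured in MIA PaCa-2, with 11 higher and 4 lower with the mimic, against 52.2% and 47.8% of all genes. Past 1.5-fold, 2 were higher and 1 lower, against 5.43% and 4.06% of all genes. SOCS1, an inhibitor of JAK kinases that interferon induces, stood at 17.6 FPKM with the mimic and 5.43 FPKM with the scramble there (1.53), and at 9.76 and 12.3 FPKM in PSN-1 (-0.31). IFNGR2, a chain of the interferon gamma receptor, stood at 123 and 67.6 FPKM in MIA PaCa-2 (0.86), and the related inhibitor SOCS3 at 12.1 and 19.5 FPKM (-0.65). In PSN-1 13 of 17 were higher and 4 lower, against 47.6% and 52.4% of all genes. None was past 1.5-fold there, against 3.17% of all genes higher and 3.87% lower. In limma, 5 of the 17 were higher in PSN-1 and 4 higher in MIA PaCa-2, against 29.2% and 27.3% of all genes. Their median line difference was 0.13. Among the 5 was IFNLR1, the type III receptor chain (2.52, adjusted p = 0.00041).

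The sensors, adapters and kinases upstream of interferon were also divided. Of 22 genes, 18 were measured in MIA PaCa-2, 9 higher and 9 lower, against 52.2% and 47.8% of all genes. None was past 1.5-fold there, against 5.43% of all genes higher and 4.06% lower. Of 17 measured in PSN-1, 6 were higher and 11 lower, where 52.4% of all genes were lower. There were 2 genes lower past 1.5-fold, against 3.87% of all genes. TMEM173, which encodes STING, stood at 3.24 against 6.91 FPKM (-0.90), and the endosomal RNA sensor TLR3 at 0.706 against 1.89 FPKM (-0.76).

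A list of 55 further interferon-inducible genes, none of them among the 41, was read in the same way. In PSN-1, 40 of 47 measured genes were lower with the mimic and 7 were higher, with a median of -0.22, where 52.4% of all genes were lower. The 9 past 1.5-fold were all lower, against 3.87% of all genes, namely TRIM22, GBP4, PSMB10, APOL1, UBA7, PARP10, GBP1, C19orf66 and APOL2. TRIM22, a ubiquitin ligase with antiviral activity, was at -1.11 and the guanylate-binding GTPase gene GBP4 at -1.07. In MIA PaCa-2 17 of 35 were higher and 18 lower, against 52.2% and 47.8% of all genes. Past 1.5-fold, 3 were higher and 1 lower, against 5.43% and 4.06% of all genes. There the immunoproteasome subunit PSMB9 stood at 2.57 FPKM with the mimic and 0.558 FPKM with the scramble (1.198), TRIM14 at 4.91 and 1.93 FPKM (1.014) and CD274, which encodes PD-L1, at 1.74 and 0.745 FPKM (0.65). STARD5, a sterol carrier gene, was lower (-0.72). In limma, 42 of the 47 tested were higher in PSN-1 and 1, WARS, was higher in MIA PaCa-2, against 29.2% and 27.3% of all genes, with a median line difference of 1.43. These values come from the same 4 libraries as those of the 41 genes.

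Genes with and without an ISRE core in their windows were set side by side. Genes counted as without a core include some with GAAA pairs at a shorter spacing, such as OAS1 and DDX58. The split is therefore by the searched letters only and does not separate genes with an ISRE from genes without. In PSN-1, 13 of 18 measured genes with a core were lower with the mimic and 2 of them past 1.5-fold, against 7 of 9 without a core, 2 of them past 1.5-fold. Over all measured genes 52.4% were lower and 3.87% lower past 1.5-fold. Between the lines, limma called 12 of 19 tested genes with a core higher in PSN-1 and 2 higher in MIA PaCa-2, against 5 of 9 and 0 without, where 29.2% and 27.3% of all genes were called. UBE2L6, shown above without a core, and BST2, shown with 2, were both called higher in PSN-1.

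Finally, the transcripts of the 41 genes were read for matches to the miR-4800-3p seed, using GENCODE release 29. A 7-base or 8-base match (GACGGAT, with or without a following A, or ACGGATA) stood in the 3' UTR of 1 of 41 genes (2.44%), against 2.49% of 11187 genes that averaged at least 1 FPKM. In coding sequence it stood in 3 of 41 (7.32%) against 4.30%. The sites are printed with the matched bases in capitals and 30 bases each, because a microRNA pairs with its targets through the seed. The sites of UBE2L6 and DDX58 are 6-base matches.
OAS3, 3' UTR: agctgcgggaaGACGGATcccacctccctt
OAS3, coding: ctgaagagctgGACGGATgttagcctgctg
MX1, coding: ctacacaccgtGACGGATAtggtccggctt
IFI44L, coding: cgtttatcgaaaACGGATAttttcattata
UBE2L6, 3' UTR: catttattttccACGGATgagtcacaatct
DDX58, coding: gaaagtggaatcACGGATtagcgacaaatt

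OAS3, with a site in both regions, stood at 11.4 FPKM with the mimic and 13.7 FPKM with the scramble in PSN-1 (-0.24) and under 1 FPKM in MIA PaCa-2. MX1, the gene with an 8-base coding match, was lower in the mimic library of each line. UBE2L6 was lower in PSN-1 and higher in MIA PaCa-2, and DDX58 was higher with the mimic in each line. IFIT2, with the lowest change in PSN-1, had no match of 6 bases or more in either region. A match is a description of letters and not a measured site.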

How the data were processed

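RNA was sequenced from 1 library per group in 2 cell lines. The authors deposited 1 table per library with FPKM values by gene symbol. Cuffdiff 2.2.1, TopHat2 2.1.1 and the build hg19 appear in the submitters' processing notes with no role stated. Handling of strand and of multiply mapped fragments is not given in the sources used here. Because FPKM are normalized values, no count test was run. Changes were taken on log2(FPKM + 1), where a gene averaged 1 FPKM or more in a line. Lines, and the mimic effect shared by both, were tested with limma 3.58.1 (R 4.3.3; line and oligonucleotide terms, mean-variance trend, Benjamini-Hochberg, threshold 0.05). Tested on simulated data from these 12423 genes, the fit recovered 99% of 2-fold and 100% of 4-fold mimic effects, with 3 unchanged genes called. The simulated effects were alike in both lines and were put only in genes above about 5 FPKM, with the spread set by level. Recovery was not measured for lower genes, for smaller effects or for genes with a wider spread, so it does not show that the genes without a call were unchanged. Depth was estimated from the steps between values under 0.3 FPKM and gave the counting errors with transcript lengths from GENCODE release 29 (all 41 genes matched) and an assumed fragment length of 200 bases. Promoter and microRNA sequences came from RefSeq on GRCh38.p14. No coordinate was converted between builds.

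The 41 genes and the pathway lists were chosen with earlier results of these data known. Genes described singly were those past 1.5-fold in either line, those opposite past 1.2-fold in both, the 5 highest in each scramble library, the 5 largest line differences in each direction and those listed at 0, and further genes are given with their role or range. Alternatives were a pseudocount of 0.1 FPKM, a filter of 5 FPKM or none, a 2-fold threshold, median-of-ratios or TPM scaling, removal of the GC trend, no trend in limma, and fits without the line or oligonucleotide term. Leaving out a library would leave a group empty and was not run.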

Additional observations from a re-analysis of the deposited data

Results flagged for a closer look

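For 3 genes the change with the mimic had opposite signs in the lines, past 1.2-fold in each. OASL was at 0.63 in MIA PaCa-2 against -0.74 in PSN-1, UBE2L6 at 0.44 and -0.97, and IFIT3 at 0.31 and -0.81, as log2 of FPKM + 1. The difference between the lines was not tested, because each group has 1 library. No group was large enough for a check of single libraries that stand apart.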

How the results depend on the processing

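Past 2-fold instead of 1.5-fold on the log2(FPKM + 1) scale, the interferon-stimulated genes called with the mimic went from 3 to 0 in MIA PaCa-2 and from 6 to 1 in PSN-1. The MIA PaCa-2 median, -0.05, turned to 0.0306 without a filter on low values and to 5.41e-06 with a filter of 5 FPKM, so it has no stable sign. With the filter of 5 FPKM, genes opposite in the lines past 1.2-fold went from 3 to 1 (OASL), and genes called between the lines in limma went from 26 to 16, with 23 instead of 36 tested. MX1 was at -0.70 in MIA PaCa-2 with a pseudocount of 0.1 FPKM, past 1.5-fold, and at -0.54 with TPM scaling, and its PSN-1 value was -0.58 with the GC trend removed, no longer past 1.5-fold. Other alternatives kept direction and threshold side or, for counts, stayed within 1.5 times. The mimic effect shared by both lines gave 0 calls under every alternative run, with a lowest adjusted p (limma) of 0.318 to 0.99998 and 0 to 7 genes at an unadjusted p under 0.05. The replicate number is 1 in every group, so pairing is by line: with no replicate block (line left out) the shared effect gave 0 calls, and with the oligonucleotide term left out the line comparison gave 25 calls, without ISG20.

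With 1 library per group, spread between cultures could not be measured. The median counting error of a change over the measured interferon-stimulated genes was 0.135 (MIA PaCa-2) and 0.103 (PSN-1) (SE, log2). Changes of 15 of the 25 measured in MIA PaCa-2 and 18 of the 35 in PSN-1 exceeded 2 counting errors. The share over all genes was not computed, so these counts do not set the interferon-stimulated genes apart.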
